A study of Mus musculus with 10 samples.

Results

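The 10 genes described here are Map2, Stmn2, Dcx, Tubb3, Gap43, Ncam1, Shc3, Syt1, Snap25 and Rbfox3, which neurons of most kinds express and most of which serve their neurites and synapses. Of them 9 were measured, out of 18820 genes in all. A gene was taken from the probe set whose annotation names it alone, and each of the 9 had exactly 1 such probe set, so no choice between probe sets was needed. Tubb3, the neuronal beta-tubulin, had no such probe set. Its only probe set is annotated to Tubb3 and Mc1r together, and no value is given for it.

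The study profiled 10 mouse teratomas, growths in which stem cells placed in a host animal develop into many tissues. All of them grew from J1 (Sv/129) embryonic stem cells that lack mouse Vhl, in female nu/nu mice, under the skin. The cells carried a human VHL cDNA, put in by electroporation, of the wildtype form (3 arrays), the R167Q form (3 arrays) or the P81S form (4 arrays). Tumours were taken at a largest dimension of 1 cm, and the labels call P81S tumours apoptosis-resistant and the other groups apoptotic. No label gives the promoter of the cDNA or the age of the hosts. The 4 P81S arrays stand for 2 clones with 2 replicates each, and which arrays share a clone is not labelled. Clones of the other forms are not described. The labels call the replicates biological, but cells were injected in both flanks, so tumours may share a host, and p-values measure the spread between these tumours alone.

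As background, a young neuron sends out neurites that are held up by microtubules. MAP2 stabilises them in dendrites, while stathmin-2 and doublecortin regulate them in growing axons and migrating neurons. GAP43 and NCAM1 act at the growth cone and the cell surface, and SHC3 passes signals from neurotrophin receptors. SYT1 senses calcium and SNAP25 helps drive fusion when a synaptic vesicle releases its transmitter. RBFOX3, the antigen known as NeuN, is a splicing regulator of mature neurons. Neural tissue is among the tissues that teratomas commonly form.

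Some arrays stood apart before any comparison. The mean of 3 transcripts of the Y chromosome (Eif2s3y, Kdm5d and Uty) was 4.26 to 4.70 log2 in the wildtype arrays, against 9.12 to 9.52 in R167Q and 8.42 to 9.28 in P81S. J1 is a male line and is labelled as the donor of every group, so the low values in all 3 wildtype libraries are unexplained. Whether they mean other donor cells was not tested. Xist averaged 7.44 log2 in wildtype, 8.26 in R167Q and 7.48 in P81S, and no contrast of it passed. Every comparison with wildtype below rests on those 3 wildtype libraries. Mouse Vhl averaged 8.67 log2 in P81S, 6.91 in wildtype and 6.99 in R167Q, and where its probes lie is not known here, so it checks nothing. Array medians ran from 6.97 to 7.11 log2 and 0 pairs of arrays were identical. P81S replicates 1 and 2 had lower chromosome 11 genes (medians of -0.36 and -0.35 log2 against the mean of the other genotypes, and -0.02 in replicates 3 and 4), and Rbfox3 lies on chromosome 11. Among other genes named below, Mapt, Snap47 and Gfap also lie on it. In replicate order, Mapt read 10.11, 10.48, 10.86 and 10.70 log2 in P81S. Snap47 read 11.09, 11.33, 11.81 and 11.91, and Gfap 12.21, 12.11, 12.67 and 13.24.

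The promoters of Map2, Syt1 and Dcx are shown to give the reader the start regions of a gene of each kind: a dendritic one that rose, a synaptic one that rose and a migration gene that did not pass. Each covers 250 bases before to 50 after a transcript start in RefSeq, assembly GRCm38.p6, in the direction of the gene. Capitals mark matches, on either strand, to 6 short motifs: the GC box GGGCGG, the E-boxes CAGCTG and CAGATG, the TATA box TATAAA, and the left and right parts, TCAGCACC and GGACAGC, of the RE1 element bound by the repressor REST. Map2 lies at chr1:66175079-66175378 (plus strand), Syt1 at chr10:109010926-109011225 (minus strand) and Dcx at chrX:143933170-143933469 (minus strand).
Map2: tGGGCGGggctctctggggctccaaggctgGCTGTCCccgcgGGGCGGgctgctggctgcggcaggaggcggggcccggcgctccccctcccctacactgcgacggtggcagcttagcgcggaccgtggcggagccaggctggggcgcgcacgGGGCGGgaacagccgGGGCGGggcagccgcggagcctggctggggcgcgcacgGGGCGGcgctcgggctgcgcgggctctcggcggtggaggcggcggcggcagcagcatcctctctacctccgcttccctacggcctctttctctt
Syt1: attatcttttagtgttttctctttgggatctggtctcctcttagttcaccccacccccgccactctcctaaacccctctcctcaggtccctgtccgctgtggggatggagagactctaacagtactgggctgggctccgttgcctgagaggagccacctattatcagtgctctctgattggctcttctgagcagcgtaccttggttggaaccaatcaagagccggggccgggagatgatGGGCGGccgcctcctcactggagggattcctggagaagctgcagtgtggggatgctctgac
Dcx: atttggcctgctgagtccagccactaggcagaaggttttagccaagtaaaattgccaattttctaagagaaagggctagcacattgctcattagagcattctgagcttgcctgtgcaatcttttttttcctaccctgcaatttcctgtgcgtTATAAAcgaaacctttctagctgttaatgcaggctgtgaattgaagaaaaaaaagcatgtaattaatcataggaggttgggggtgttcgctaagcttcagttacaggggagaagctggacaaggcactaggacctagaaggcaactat
The Map2 promoter was 77.7% G and C, higher than 97.9% of the promoters in the table, and held 5 GC boxes and 1 match to the right part of RE1. The Syt1 start was 56.7% G and C with 1 GC box, and the Dcx start 43% with 1 TATA box, against a median of 52.7% over all promoters. The Rbfox3 start at chr11:118760992-118761291, which lies inside the gene's span of 118489760-118911597, held none of the 6 motifs. A further Syt1 start at chr10:109009062-109009361 held 1 CAGCTG. The start of the unmeasured Tubb3, at chr8:123411303-123411602, held 2 GC boxes and 1 match to each part of RE1. Of the 10 genes 5 had a promoter in the table, 4 of them with a measured value. Over the 32851 promoters of this length, 35.7% held the GC box, 16.3% CAGCTG, 17.2% CAGATG, 13.6% TATAAA, 1.65% the left and 6.56% the right part of RE1. Among 133 promoters of other neuronal genes the shares were 48.1%, 28.6%, 15%, 8.27%, 3.01% and 5.26%. Both counts are of transcript starts and not of genes, and starts of 1 gene can overlap. The difference between the shares was not tested. Matches describe the sequence and are not shown to be sites.

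P81S was first compared with wildtype. These groups also differed in Y-linked transcripts and in the mouse Vhl signal, and the clone of each P81S array is not labelled. The VHL form, the donor cells and the clone therefore cannot be told apart. Of the 9 measured genes 8 rose and 0 fell. Shc3 rose most, 4.56-fold, followed by Snap25 at 2.55-fold, Rbfox3 at 2.35-fold and Gap43 at 2.27-fold, and Dcx alone did not pass. At an unadjusted p under 0.05, limma gave 9 higher and 0 lower. Shares of all genes at this unadjusted threshold, here and below, were not computed. A gene is called here when its p, adjusted by the Benjamini-Hochberg method over all genes in limma, is under 0.05. Of all genes 17.2% were called higher and 17.5% lower. All P81S arrays lay above all wildtype arrays for 8 of the 9 genes, against 19.9% of all genes. The genes were chosen with earlier results of these data known, so these shares, here and below, are a description. The median difference was 0.85 log2 (1.8-fold) over the 9 genes and 0.01 over all genes. A tumour holds many tissues, so more neurons in P81S and more of these RNAs per neuron cannot be told apart.

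**Figure D1:**
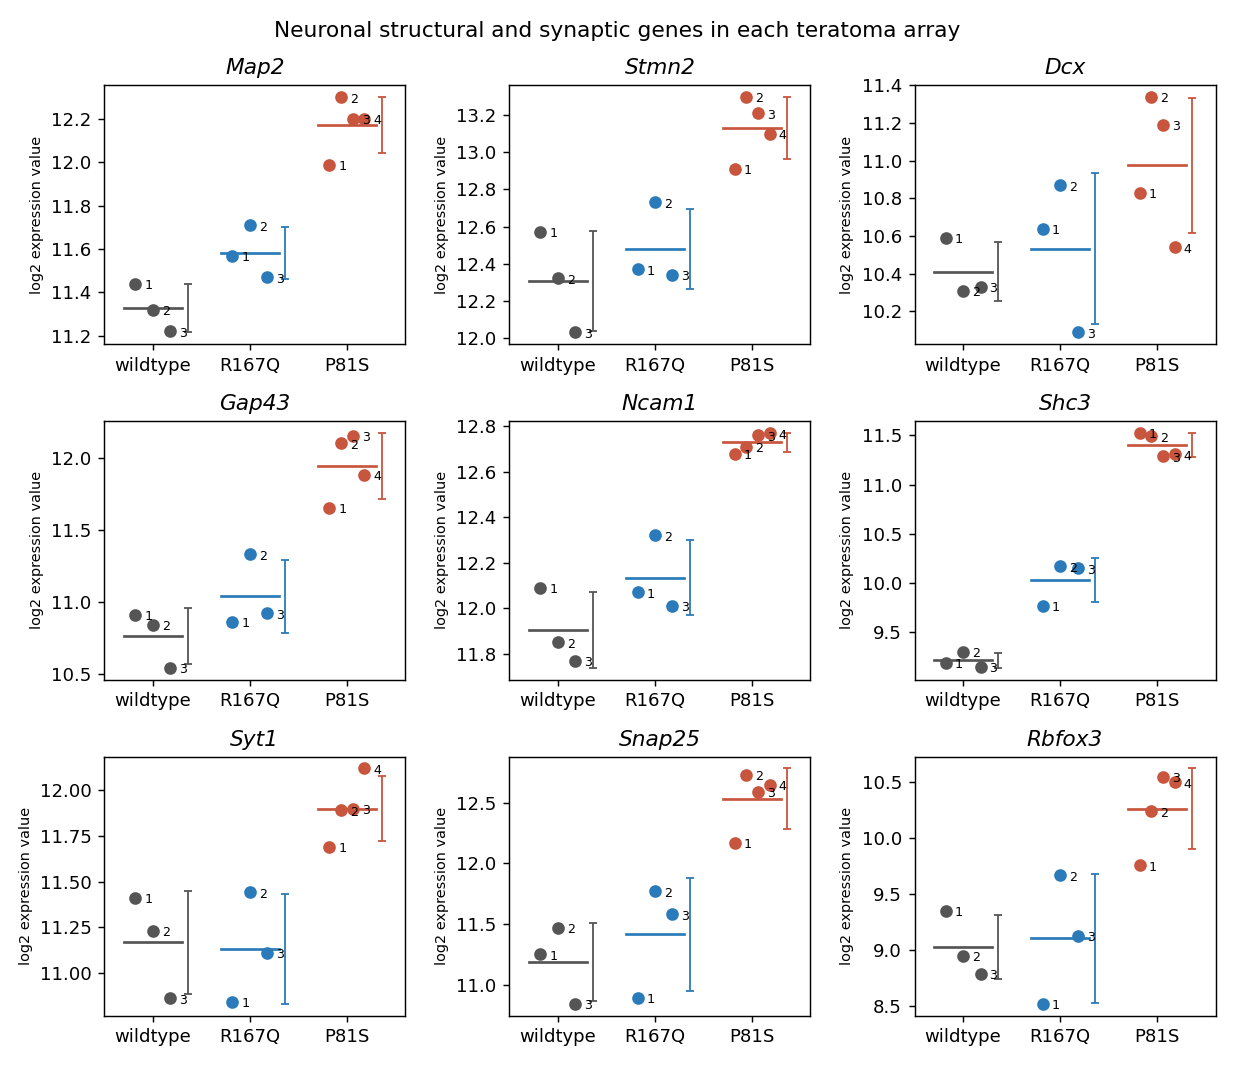
Deposited log2 expression value (vertical axis, its own range in each panel) of the 9 measured genes in wildtype, R167Q and P81S teratomas. Points are arrays numbered by replicate, lines are group means and bars are SDs. P81S arrays lie above both other groups in every panel but Dcx, where replicates 1 and 4 lie within the range of the other groups.

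In replicate order, Map2 read 11.99, 12.30, 12.20 and 12.20 log2 in P81S, 11.44, 11.32 and 11.22 in wildtype, and 11.57, 11.71 and 11.47 in R167Q. The 3 groups did not overlap, with wildtype lowest, R167Q between and P81S highest. Its means were 12.17 ± 0.13 log2 (SD, n = 4) in P81S, 11.32 ± 0.11 (n = 3) in wildtype and 11.58 ± 0.12 (n = 3) in R167Q. Map2 rose in P81S by 0.85 ± 0.09 log2 (SE; 1.80-fold, adjusted p = 9.85e-05) against wildtype and by 0.59 ± 0.09 (1.5-fold, adjusted p = 0.00186) against R167Q. R167Q stood 0.26 ± 0.10 above wildtype without passing (adjusted p = 0.457). The promoter shown above is that of this gene.

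Stmn2 encodes stathmin-2, which binds tubulin in growing axons. It read 12.91, 13.30, 13.21 and 13.10 log2 in P81S, 12.57, 12.32 and 12.03 in wildtype, and 12.37, 12.73 and 12.34 in R167Q. All P81S arrays were above all others, and wildtype and R167Q overlapped. The means were 13.13 ± 0.17 log2 (SD, n = 4), 12.31 ± 0.27 (n = 3) and 12.48 ± 0.22 (n = 3). Stmn2 rose in P81S by 0.82 ± 0.14 (1.77-fold, adjusted p = 0.00106) against wildtype and by 0.65 ± 0.14 (1.56-fold, adjusted p = 0.00778) against R167Q, and R167Q differed from wildtype by 0.17 ± 0.15 (adjusted p = 0.751).

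Dcx encodes doublecortin, a microtubule-binding protein of migrating young neurons. It read 10.83, 11.34, 11.19 and 10.54 log2 in P81S, 10.59, 10.31 and 10.33 in wildtype, and 10.64, 10.87 and 10.09 in R167Q. P81S replicates 1 to 3 lay above every wildtype array, while replicate 4 lay below the highest. The means were 10.97 ± 0.36 log2 (SD, n = 4), 10.41 ± 0.16 (n = 3) and 10.53 ± 0.40 (n = 3). P81S stood 0.56 ± 0.21 above wildtype (95% interval 0.09 to 1.03, adjusted p = 0.0623), 0.44 ± 0.21 above R167Q (-0.03 to 0.91, adjusted p = 0.174), and R167Q 0.12 ± 0.23 above wildtype (adjusted p = 0.908). No contrast passed. Without P81S replicate 4 the difference from wildtype was 0.71 and passed (adjusted p = 0.0202), as it did at 0.56 without R167Q replicate 3 (adjusted p = 0.0363).

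Gap43 encodes a membrane phosphoprotein of the growth cone. It read 11.65, 12.10, 12.15 and 11.88 log2 in P81S, 10.91, 10.84 and 10.54 in wildtype, and 10.86, 11.33 and 10.92 in R167Q. The P81S arrays were all above the rest, with R167Q replicate 2 the highest of the other arrays. The means were 11.95 ± 0.23 log2 (SD, n = 4), 10.76 ± 0.20 (n = 3) and 11.04 ± 0.26 (n = 3). Gap43 rose in P81S by 1.18 ± 0.15 (2.27-fold, adjusted p = 0.000211) against wildtype and by 0.91 ± 0.15 (1.87-fold, adjusted p = 0.00228) against R167Q. R167Q and wildtype differed by 0.28 ± 0.16 (adjusted p = 0.628).

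Ncam1 encodes an adhesion molecule of the neuronal surface that other embryonic tissues also make. It read 12.68, 12.71, 12.76 and 12.77 log2 in P81S, 12.09, 11.85 and 11.77 in wildtype, and 12.07, 12.32 and 12.01 in R167Q. P81S was the tightest group and lay above every other array. The means were 12.73 ± 0.04 log2 (SD, n = 4), 11.90 ± 0.17 (n = 3) and 12.13 ± 0.17 (n = 3). Ncam1 rose in P81S by 0.83 ± 0.09 (1.78-fold, adjusted p = 0.000113) against wildtype and by 0.60 ± 0.09 (1.51-fold, adjusted p = 0.00181) against R167Q, and R167Q stood 0.23 ± 0.10 above wildtype without passing (adjusted p = 0.5).

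Shc3 encodes the Shc adaptor of neurons. It read 11.53, 11.49, 11.29 and 11.31 log2 in P81S, 9.19, 9.30 and 9.15 in wildtype, and 9.77, 10.17 and 10.15 in R167Q. The groups formed 3 separate steps, wildtype lowest and P81S highest. The means were 11.40 ± 0.12 log2 (SD, n = 4), 9.22 ± 0.08 (n = 3) and 10.03 ± 0.23 (n = 3). Shc3 rose in P81S by 2.19 ± 0.12 (4.56-fold, adjusted p = 7.62e-06) against wildtype and by 1.38 ± 0.12 (2.6-fold, adjusted p = 0.000248) against R167Q. It also rose in R167Q by 0.81 ± 0.12 (1.75-fold, adjusted p = 0.0491) against wildtype. That last call ended under 15 of 25 alternatives, among them leaving out P81S replicate 2, 3 or 4, R167Q replicate 2 or 3, or any wildtype array (adjusted p = 0.0673 to 0.271), with the difference at 0.74 to 0.94 log2 throughout.

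Syt1 encodes the calcium sensor of fast transmitter release. It read 11.69, 11.89, 11.90 and 12.12 log2 in P81S, 11.41, 11.23 and 10.86 in wildtype, and 10.84, 11.44 and 11.11 in R167Q. P81S lay above all other arrays and the other groups covered the same range. The means were 11.90 ± 0.18 log2 (SD, n = 4), 11.16 ± 0.28 (n = 3) and 11.13 ± 0.30 (n = 3). Syt1 rose in P81S by 0.74 ± 0.16 (1.67-fold, adjusted p = 0.00482) against wildtype and by 0.77 ± 0.16 (1.71-fold, adjusted p = 0.00679) against R167Q. R167Q minus wildtype was -0.04 ± 0.17 (95% interval -0.42 to 0.35, adjusted p = 0.97).

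Snap25 encodes a SNARE protein of the presynaptic membrane. It read 12.17, 12.73, 12.59 and 12.65 log2 in P81S, 11.25, 11.47 and 10.84 in wildtype, and 10.89, 11.77 and 11.58 in R167Q. P81S again lay above all others, and R167Q was the most spread group. The means were 12.54 ± 0.25 log2 (SD, n = 4), 11.19 ± 0.32 (n = 3) and 11.41 ± 0.46 (n = 3). Snap25 rose in P81S by 1.35 ± 0.22 (2.55-fold, adjusted p = 0.000727) against wildtype and by 1.12 ± 0.22 (2.18-fold, adjusted p = 0.00439) against R167Q, and R167Q and wildtype differed by 0.23 ± 0.23 (adjusted p = 0.802).

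Rbfox3 read 9.76, 10.24, 10.55 and 10.50 log2 in P81S, 9.35, 8.95 and 8.79 in wildtype, and 8.52, 9.67 and 9.13 in R167Q. All P81S arrays lay above the rest, by a narrow margin between P81S replicate 1 and R167Q replicate 2. The means were 10.26 ± 0.36 log2 (SD, n = 4), 9.03 ± 0.29 (n = 3) and 9.11 ± 0.58 (n = 3). Rbfox3 rose in P81S by 1.23 ± 0.27 (2.35-fold, adjusted p = 0.00435) against wildtype and by 1.15 ± 0.27 (2.22-fold, adjusted p = 0.011) against R167Q. R167Q and wildtype differed by 0.08 ± 0.29 (adjusted p = 0.959). Against wildtype the difference was 1.5 (adjusted p = 0.00276) without P81S replicates 1 and 2, whose chromosome 11 genes were low, and 0.97 (adjusted p = 0.0503) without replicates 3 and 4. The call against R167Q ended without R167Q replicate 1 (0.86, adjusted p = 0.0519).

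The comparison of R167Q with wildtype, which shares the wildtype arrays with the one above, called 1 of 9 genes higher, Shc3, and 0 lower. Unadjusted limma p-values under 0.05 numbered 3 higher (Map2, Ncam1 and Shc3) and 0 lower. At the adjusted threshold few genes of any kind were called, 0.0638% higher and 0.0266% lower. These shares are no measure for the unadjusted counts. R167Q arrays lay above all wildtype arrays for 2 of the 9 genes, Map2 and Shc3, against 6.93% of all genes. The median difference was 0.23 log2 over the 9 genes and -0.02 over all genes.

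The comparison of P81S with R167Q shares the P81S arrays with the first. It called 8 of 9 genes higher and 0 lower, with 8 also at an unadjusted p under 0.05, and Dcx did not pass. Of all genes 12.4% were called higher and 10.1% lower. All P81S arrays lay above all R167Q arrays for 8 of the 9 genes, against 16.5% of all genes. The median difference was 0.77 log2 (1.71-fold), against 0.02 over all genes, and Shc3, Snap25 and Rbfox3 were at least 2-fold higher. Without P81S replicates 3 and 4 the calls of Stmn2, Syt1 and Rbfox3 ended (adjusted p = 0.0557, 0.0589 and 0.0984) and 5 of 9 were left.

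**Figure D2:**
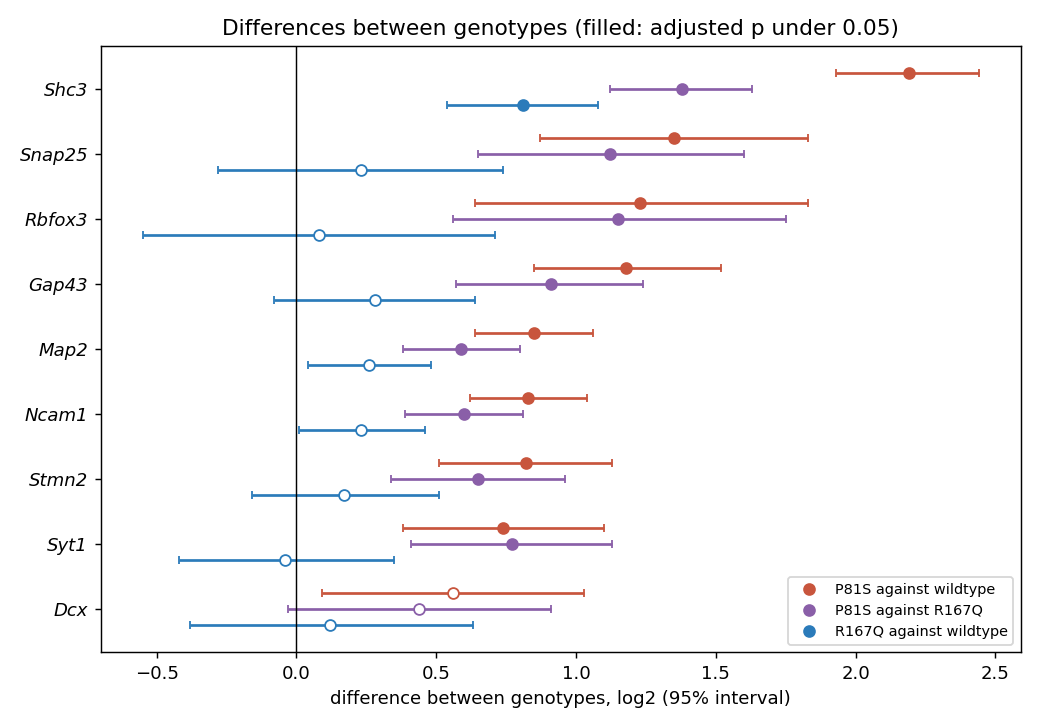
Difference between genotypes (horizontal axis, log2) for each of the 9 genes, with 95% intervals from the linear model. Filled points passed the adjusted p threshold: 8 for P81S against wildtype, 8 for P81S against R167Q and 1 (Shc3) for R167Q against wildtype.

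Within groups, single arrays ranked alike for most of the 9 genes. P81S replicate 1 was the lowest of its group for 7 of the 9 genes and the highest for 1, Shc3. R167Q replicate 2 was the highest of its group for 9 of 9, and it lay above the highest wildtype array for 9 of 9, against 3 for replicate 1 and 4 for replicate 3. Wildtype replicate 3 was the lowest of its group for 8 of 9. The median difference of the 9 genes from their wildtype mean was 0.73, 0.99, 0.90 and 0.96 log2 in the P81S arrays, in replicate order, and 0.10, 0.46 and 0.11 in the R167Q arrays. The same arrays moved in markers of other cells. Against the wildtype mean, the epithelium list stood at 1.43 log2 in P81S replicate 1 and at -0.85 to -0.08 in the other P81S arrays, and the pluripotent list at -1.27 in R167Q replicate 2 and at -0.49 and -0.19 in the others. The part of these markers in the levels of the 9 genes was not tested.

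Relatives of the 10 genes, 43 in number with Snap91 counted by name alone, mostly moved the same way. Against wildtype 33 rose in P81S, 1 fell and 9 did not pass, with a median of 0.81 log2. Against R167Q 27 rose and 0 fell in P81S. Of all genes 17.2% and 12.4% were called higher in these comparisons. Between R167Q and wildtype 0 relatives were called (9 higher and 0 lower at an unadjusted limma p under 0.05). The families were also chosen with earlier results of these data known. Whether probes of 1 family member also catch another is not known here.

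Among microtubule-associated proteins, Map1a, a light-chain precursor of mature neurons, rose 3.01-fold in P81S against wildtype (1.59 ± 0.17 log2, adjusted p = 8.01e-05), and Mapt, which encodes tau of axons, 2.46-fold (1.30 ± 0.19, adjusted p = 0.000419). Map6 and Map1b rose by 1.32 and 0.75. Map4, which many tissues use, rose by 0.37 (adjusted p = 0.011), a call that ended without wildtype replicate 2. Map7, a microtubule protein of epithelia as well, was lower by 0.46 ± 0.16 (adjusted p = 0.0423), and this call ended without any 1 of 7 arrays: any P81S array, wildtype replicate 2 or 3, or R167Q replicate 1. The 4 stathmins all rose in P81S against both other groups. Stmn4 rose 2.73-fold, Stmn3 2.04-fold and Stmn1, which dividing cells also make, 1.42-fold against wildtype (adjusted p = 0.000277, 0.00136 and 0.00158), and the call of Stmn1 against R167Q ended without R167Q replicate 3.

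With Tubb3 unmeasured, the other beta-tubulins are the nearest reading, and they split. Tubb2a rose 1.76-fold (0.82 ± 0.15, adjusted p = 0.00178), Tubb4a 1.75-fold (0.81 ± 0.23, adjusted p = 0.0192) and Tubb2b 1.28-fold (0.36 ± 0.08, adjusted p = 0.00599) in P81S against wildtype. Tubb5, Tubb6 and Tubb4b, which are made in many tissues, differed by 0.11 ± 0.10, 0.03 ± 0.17 and -0.10 ± 0.17 (adjusted p = 0.413, 0.92 and 0.704), and Tubb1, of platelets, by 0.63 ± 0.31 (adjusted p = 0.15). The Tubb4a call ended without wildtype replicate 3. Of the doublecortin kinases, Dclk1 rose 2.94-fold (1.56 ± 0.15, adjusted p = 4.58e-05) and Dclk2 1.58-fold, while Dclk3 did not pass (0.30 ± 0.22). Dcx itself thus showed a smaller difference than Dclk1, though the 2 differences were not tested against each other.

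Basp1, Marcks and Marcksl1, membrane phosphoproteins that act like GAP43 at the cell cortex, rose by 0.78, 0.47 and 0.39 log2 in P81S against wildtype. The last is at the edge of the threshold (adjusted p = 0.0492), and its call ended under 13 of 25 alternatives, median centring and 7 single arrays (P81S replicates 1 to 3, wildtype 2 and 3, R167Q 1 and 2) among them. Ncam2 rose 2.04-fold (adjusted p = 0.0105), a call that ended without wildtype replicate 3. In the Shc family, Shc4 rose 2.25-fold (1.17 ± 0.18, adjusted p = 0.000605) and Shc2 1.99-fold (0.99 ± 0.20, adjusted p = 0.00285). Shc1, the member of most non-neuronal tissues, was at -0.44 ± 0.21 and did not pass (adjusted p = 0.142), though without P81S replicate 1 it did, on the lower side.

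The synaptotagmins gave 10 of 12 higher and 0 lower in P81S, against wildtype and against R167Q. Over the alternatives the count higher was 7 to 11 against wildtype and 6 to 11 against R167Q. The R167Q calls of Syt6 and Syt10 each ended without any 1 of 4 arrays, and that of Syt12 without any 1 of 3. Against wildtype, Syt13 rose most, 4.12-fold (2.04 ± 0.19, adjusted p = 4.37e-05), from 8.56, 8.21 and 7.90 log2 in wildtype to 10.20, 10.34, 10.13 and 10.40 in P81S. Syt10, Syt3 and Syt5 rose 3.05-fold, 2.99-fold and 2.86-fold against wildtype. Syt2 (0.44 ± 0.19) and Syt9 (-0.01 ± 0.14) did not pass. Snap23, the SNAP25 relative of non-neuronal cells, differed by 0.06 ± 0.12 (adjusted p = 0.765). Snap29 rose 1.5-fold and Snap47 1.44-fold, and the Snap47 call (adjusted p = 0.0407) ended without any 1 of 6 arrays, P81S 3 or 4, any wildtype array, or R167Q 3. Snap91, a clathrin adaptor of synapses that shares only the name, rose 3.11-fold (1.64 ± 0.13, adjusted p = 2.53e-05). Rbfox2, a splicing factor of many tissues, rose 1.35-fold (adjusted p = 0.00327) and Rbfox1 1.84-fold (adjusted p = 0.0215), the latter not without P81S replicate 3 or wildtype replicate 2 or 3.

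**Figure D3:**
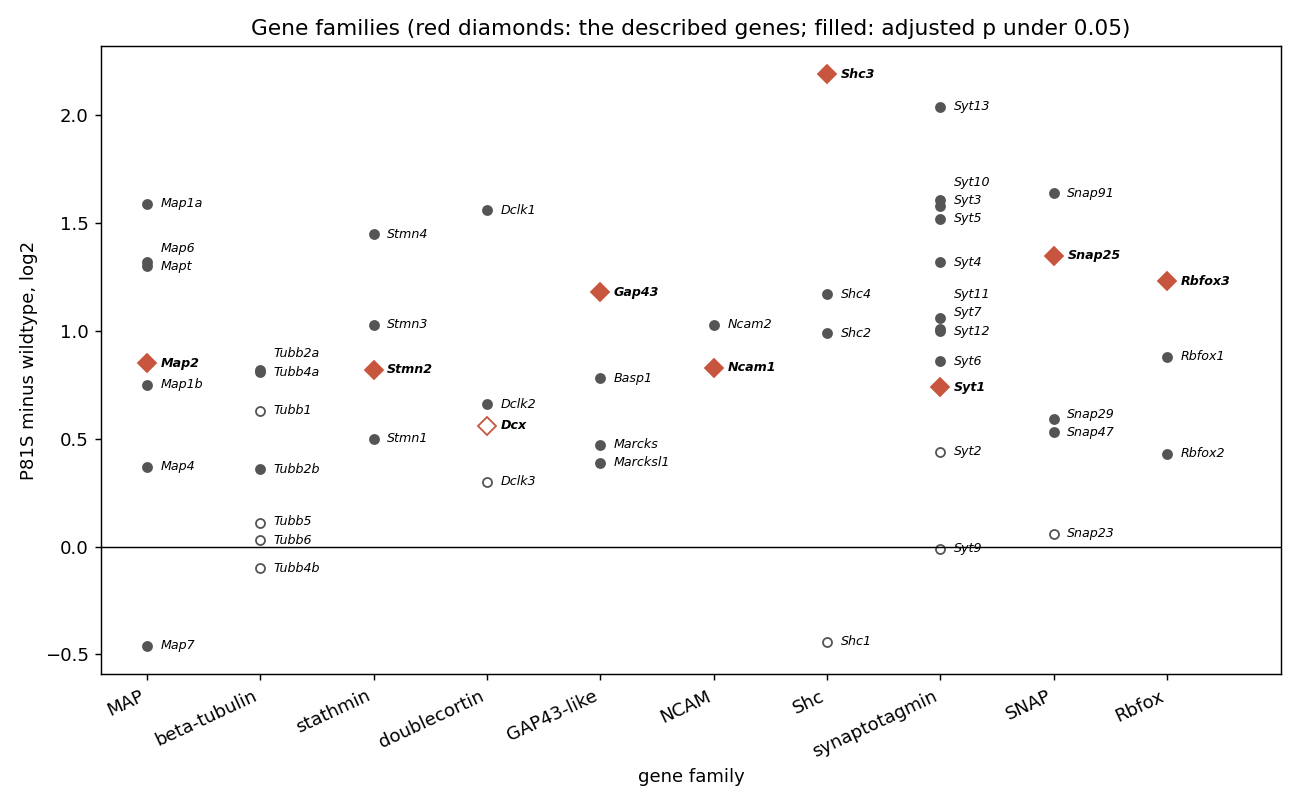
P81S minus wildtype difference (vertical axis, log2) for the 9 measured genes (red diamonds) and their 43 relatives (grey circles), by family on the horizontal axis. Snap91 is placed by name alone. Filled symbols passed the adjusted p threshold, and the open circles of Tubb5, Tubb6, Tubb4b, Snap23 and Syt9 lie near 0.

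Other neuronal genes were grouped in 6 lists by role, 100 measured of 108. The lists were also chosen with earlier results of these data known, so their counts are a description. Against wildtype 73 rose in P81S, 1 fell and 26 did not pass, with a median difference of 1.00 log2. Against R167Q 70 rose and 0 fell in P81S (43 rose without P81S replicates 3 and 4), with a median of 0.78. Between R167Q and wildtype 0 were called (14 higher and 0 lower at an unadjusted limma p under 0.05) and the median was 0.23.

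By role, the neurite cytoskeleton gave 15 of 18 higher and 0 lower in P81S against wildtype, with Ank2, a membrane anchor of axons, 2.38-fold higher and Kif1a, a vesicle motor, 2.78-fold. Adhesion and guidance gave 15 of 18 and 0, with the axonal adhesion gene L1cam 2.92-fold higher (9.80, 9.45 and 9.42 log2 in wildtype, 11.01 to 11.19 in P81S) and the neurexin gene Nrxn2 2.82-fold. Vesicle release genes gave 22 of 24 and 0, with the priming factor Unc13a 3.9-fold higher and Syn1, a synapsin, 2.99-fold. The postsynaptic scaffolds gave 11 of 13 and 0, led by Shank2 (2.98-fold) and Shank1 (3.57-fold). Neuronal RNA-binding proteins gave 7 of 10 and 0, with the splicing factor Nova2 2.53-fold higher and Celf4 3.15-fold. List medians were 0.82, 1.02, 1.32, 1.20 and 1.19 log2.

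Proneural and neuronal transcription factors gave 3 of 17 higher and 1 lower, with a median of 0.25 log2. This share of higher calls is near the 17.2% of all genes, and its difference from the other lists was not tested. Myt1l, which holds neuronal identity, rose 2.88-fold (adjusted p = 0.000105) and Tbr1, of cortical projection neurons, 3.59-fold (adjusted p = 0.00044), and Isl1, of motor and sensory neurons, 2.71-fold. Tbr1 was dim, at means of 5.37 log2 in wildtype and 7.22 in P81S, where array medians were 6.97 to 7.11. Isl1 and the further genes Rcor2, Hdac1, Vim, Aldoc, Gjb6 and Slc1a3 below complete the counts of their lists and were chosen after their values were seen. Neurog1, which commits progenitors to neurons, fell by 0.80 ± 0.19 (1.74-fold lower, adjusted p = 0.00758). Without P81S replicate 4 the count higher was 6. The list's mean in that array was -0.10 log2 against the wildtype mean, and 0.31 to 0.77 in the other P81S arrays.

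Repressors of neuronal genes went the other way in part, with 1 of 12 higher, 5 lower and 6 not passing in P81S against wildtype. Rest, which silences neuronal genes in other cells through RE1 elements, read 9.73, 9.35, 9.27 and 9.11 log2 in P81S, 10.35, 10.45 and 10.90 in wildtype, and 10.55, 10.15 and 10.63 in R167Q. It fell in P81S by 1.20 ± 0.18 (2.3-fold lower, adjusted p = 0.000491) against wildtype and by 1.08 ± 0.18 (2.11-fold lower, adjusted p = 0.00221) against R167Q. Its P81S arrays lay below all others. Sin3a, Hdac1 and Rcor2, of REST corepressor complexes, fell 1.99-fold, 1.99-fold and 2.03-fold, and Ptbp1, a repressor of neuronal splicing, fell 1.57-fold (adjusted p = 0.00373) against wildtype, while the histone methyltransferase gene Ehmt2 rose 1.46-fold. Against R167Q 4 of the 12 fell in P81S, 2 without R167Q replicate 1. Rest and Ptbp1 are also made by pluripotent and dividing cells, and whether their fall bears on the 9 genes was not tested.

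Markers of other cells moved in the same arrays. The counts below are for P81S against wildtype unless R167Q is named. Pluripotent genes fell in P81S for 10 of 10 (median -3.43 log2, Dppa3 17.1-fold lower), and genes of proliferating cells for 6 of 7 (median -1.47). The mean of the pluripotent list, set against its wildtype mean, was -4.43 to -2.59 log2 in P81S. Astrocyte genes gave 5 of 8 higher and 0 lower, with Slc1a2, their glutamate transporter, 4.33-fold higher, then Gfap, Gjb6, Aldoc and Slc1a3 at 3.32-fold to 1.41-fold. The astrocyte count was 3 of 8 without P81S replicate 4, wildtype replicate 2 or wildtype replicate 3. Against R167Q 2 of the 8, Slc1a2 and Gjb6, were higher in P81S (1 to 4 over the alternatives), with 12.4% of all genes called higher. Gfap did not pass against R167Q (0.82 ± 0.35 log2, adjusted p = 0.123). Endocrine genes, many of them shared with neurons, gave 6 of 9 and 0, with the peptide-processing gene Cpe 3.15-fold higher and Syp, also in the vesicle list, 3.34-fold. Neural progenitor genes gave 1 of 12 higher, Vim at 1.16-fold (0 without wildtype replicate 3, 2 without R167Q replicate 3), and 2 lower, Sox3 at 1.5-fold and Sox2 at 1.33-fold. Oligodendrocyte and Schwann cell genes gave 0 of 7 called (0 at an unadjusted limma p under 0.05, and 1 called higher without P81S replicate 2). Over all alternatives 0 to 3 were called higher. The list's mean against wildtype was -0.39 and -0.12 log2 in P81S replicates 1 and 2, and 0.51 and 0.74 in replicates 3 and 4. Skeletal muscle genes gave 0 of 9 (1 at an unadjusted p under 0.05, Myf5, and 1 or 2 called higher without P81S replicate 1 or 2 or wildtype replicate 1). Over all alternatives 0 to 5 of the muscle genes were called higher. Surface and gut epithelium gave 0 of 10 higher and 1 lower, the intestinal factor gene Cdx2 (adjusted p = 0.047). Without P81S replicate 1 it gave 5 lower, and 0 lower without any other single array but wildtype replicate 2. Their part in the differences of the 9 genes was not tested.

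**Figure D4:**
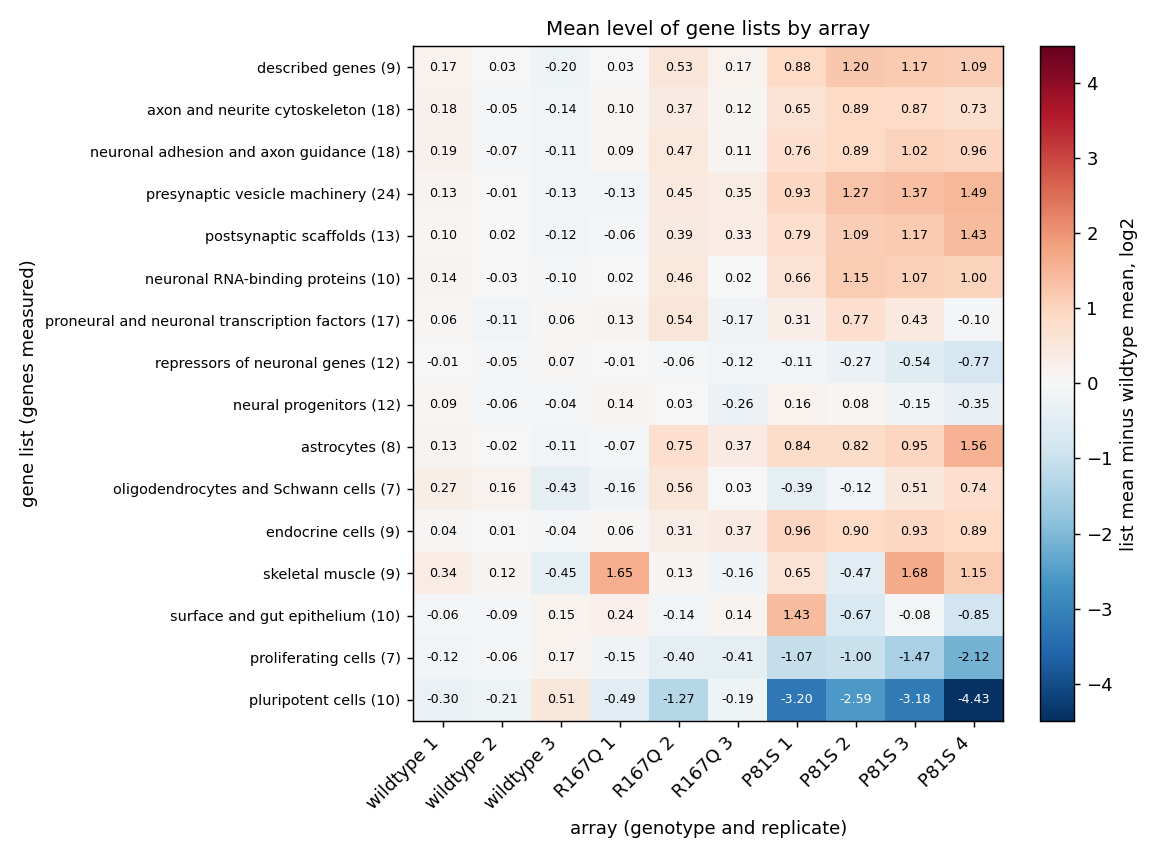
Mean of each gene list in each array minus its wildtype mean (colour and printed number, log2), with arrays on the horizontal axis and lists on the vertical. The top line is the 9 genes described, at 0.88 to 1.20 in P81S and 0.03 to 0.53 in R167Q, and the bottom line the pluripotent genes, at -4.43 to -2.59 in P81S.

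The profiles of the 9 genes over the 10 arrays were compared by the root mean square difference of log2 values centred on each gene's mean. Map2 and Ncam1 were the closest pair (0.08 log2), followed by Stmn2 and Map2 (0.10), and Dcx and Shc3 the farthest (0.75). Gap43 lay nearest the mean profile of the 9 genes (0.07) and Shc3 farthest (0.49). Among all other genes the 5 nearest the mean profile were Fsd1 (0.06), Reep1 (0.07), Uchl1, Pgap4 and Eid2b (0.08 each). Reep1 encodes an endoplasmic reticulum protein of axons and Uchl1 a ubiquitin hydrolase abundant in neurons. Fsd1, Pgap4 and Eid2b are not described here, so the 5 are not shown to be neuronal as a set. Uchl1 read 11.37, 11.85, 11.66 and 11.62 log2 in P81S and 10.85, 10.73 and 10.49 in wildtype. The 5 were picked for this likeness, so their differences of 0.93 to 1.19 log2 between P81S and wildtype are a description.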

How the data were processed

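Each teratoma RNA was hybridised to its own 1-colour Affymetrix array. The authors deposited log2 expression values for 35556 probe sets, and RMA and Partek appear in the submitters' processing notes with no role or version, and the genome build is not given in the sources used here. Scanner files were not used here, so signal over background is unknown. Of the probe sets, 21218 name 1 gene and 1881 several in the platform annotation (the rest are unnamed here), and 21185 matched the RefSeq table by Entrez number. Each of 18820 genes took its probe set with the highest mean.

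All 10 arrays entered 1 model of 3 group means in limma 3.58.1 (lmFit, eBayes with a variance trend, two-sided; R 4.3.3, statmod 1.5.0), with 7 residual degrees of freedom. P-values were adjusted by Benjamini-Hochberg over all genes of a contrast. The procedure was tested on simulated data. Genes named are the 10 members, their families, of each other list up to 2 genes with the smallest p in P81S against wildtype and 1 in R167Q against wildtype, Rest, Ptbp1, the 5 likest genes and sample checks. The members and lists were chosen with earlier results of these data known. Alternatives covered scaling, dim genes, probe sets, variance models, array weights, groups in the model, the replicate number as a block, clone pairings and leaving out arrays.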

Additional observations from a re-analysis of the deposited data

Results flagged for a closer look

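Among 97 groups of 4 P81S arrays tested for 1 array far from the others (Dixon's ratio of the gap to the range), 3 passed, and chance alone passes about 1 in 20. None was among the 9 genes described. In P81S, Map4 read 11.14 log2 in each of replicates 1 to 3 and 11.37 in replicate 4 (ratio 0.976). Marcks read 11.98 to 12.01 log2 in replicates 1 to 3 and 11.71 in replicate 4 (ratio 0.912). Nrp1, a semaphorin co-receptor, read 10.33 log2 in replicate 1 and 9.91 to 9.97 in the others (ratio 0.857).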

How the results depend on the processing

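Over 25 alternatives, P81S against wildtype called 7 to 9 of the 9 genes higher and 0 lower (8 to 9 with single arrays left out), and 0 member results reversed. Dcx passed in 7 of the 25 (adjusted p = 0.00543 to 0.176 over all). Calls over all genes were 5073 to 6953 with single arrays left out, against 6530. R167Q against wildtype called 0 members, not 1, with dim genes left out, no variance trend, robust variance, only the 2 groups compared, the replicate number as a block, without P81S arrays 1 and 2 and without 3 and 4, and 0 to 1 with single arrays left out. Over all genes it called 3 with dim genes left out, 28 with every probe set, 26 with only the 2 groups and 42 with array weights, against 17, and 5 to 21 with single arrays left out (5 to 10 without any wildtype or R167Q array). P81S against R167Q called 5 members and 2419 genes without P81S arrays 3 and 4, against 8 and 4234. With single arrays left out it called 7 to 8 members and 2328 to 4916 genes, fewest without R167Q replicate 1. The causes were not tested.

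Between arrays of equal replicate number, correlations of deviations from group means were -0.28 to 0.21, and 2 of 9 passed 0.1. Arrays of unequal number were not compared in this way, so whether the numbers pair the arrays cannot be decided. With the replicate block, in which P81S replicate 4 has no partner, Dcx passed at 0.71 log2 (adjusted p = 0.0263) and Shc3 in R167Q against wildtype did not (adjusted p = 0.178). Of 675 member values 647 kept their call, 20 lost it and 8 gained it. Of 6537 values of other named genes, 6374 kept theirs. Median centring and quantile normalization put 45.8% and 46.4% of calls on the higher side in P81S against wildtype, against 49.5%. The number of arrays limits precision, and signal over background is unknown.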
